A study of Mus musculus with 4 samples.

Results

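Glutamate and GABA are the main excitatory and inhibitory transmitters of the brain, and the genes described here encode their receptor subunits. The genes were chosen by symbol (Gria, Grik, Grin, Grid, Grm and the Gabra, Gabrb, Gabrg, Gabrd, Gabre and Gabrq names of the deposited gene list) and kept with at least 20 UMIs (unique molecular identifiers, one per captured RNA molecule) over the called nuclei. Of 41 symbols, 39 were kept among 32285 listed genes, of which 19488 reached that level. Gabra6, with 2 UMIs, and Grm6, with 4 UMIs, were not kept. The kept genes are 4 AMPA, 5 kainate, 7 NMDA and 2 delta receptor subunits, 7 metabotropic glutamate receptors and 14 GABA-A receptor subunits.

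Single-nucleus RNA was measured in brains of female 5XFAD mice, which carry mutant human transgenes, APP among them, under the neuronal Thy1 promoter, with 10x Genomics 3' chemistry on nuclei from frozen sections. All mice, aged 7 to 10 weeks by the series' design text, received 6.55e09 extracellular vesicles in 100 µL intravenously. The vesicles of the PE-low-EV group were engineered from lipids of chow-fed mouse adipose vesicles, those of the PE-high-EV group carried added phosphatidylethanolamine (PE), and both bore transferrin. Each group had 2 libraries of 2 pooled mice each, no untreated or wild-type library was analysed here, and every mouse carried the 5XFAD transgenes. With at most 3% mitochondrial UMIs and 200 to 2500 genes, 10689 of 45527 called nuclei were kept, between 1457 and 3458 per library. Median UMIs of the kept nuclei were 2332.5 and 2885 in the PE-low-EV libraries and 1877 and 1712 in the PE-high-EV libraries, so the PE-high-EV libraries were shallower. Library pairs shared 27 to 53 barcodes.

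AMPA, kainate and NMDA receptors are cation channels that carry fast excitation, each built from 4 subunits of its own family. The AMPA type gives the fastest current, and the NMDA type needs a glycine-binding subunit and serves as a coincidence detector in plasticity. Metabotropic glutamate receptors act through G proteins, Grm5 by way of Gq and most other members by way of Gi or Go. GABA-A receptors are chloride channels of 5 subunits, most often alpha, beta and gamma together, and the delta subunit marks receptors outside the synapse. The mix of subunits sets the kinetics and drug response of a receptor, and neuron types are known to differ in it.

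Nuclei were clustered without the 39 genes and named from marker genes. Slc17a7 excitatory neurons (4450 nuclei) comprised upper layer (1033), layer 5 (260) and layer 6 corticothalamic (745) clusters, a cluster led by Rorb (628) and other Slc17a7 clusters (1784), which were named without layer markers and whose place in the cortex was not tested. The Rorb cluster is called by its leading gene because only 2 of its 4 layer markers reached 20 CPM (UMIs of a gene per 1000000 UMIs of a class in a library). Striatal projection neurons (2727) comprised a direct pathway class with Drd1 (1256), an indirect pathway class with Drd2 (1153) and a mixed class (318). Interneurons fell into a Sst and Pvalb class (469) and an Adarb2 class (161). A subcortical inhibitory class (1160) rested on 3 of 6 markers, and a Slc17a6 subcortical class held 95 nuclei, none of them in PE-high-EV library 1. Glia were astrocytes (485), oligodendrocytes (456), oligodendrocyte precursors (229) and microglia (162). Subcortical inhibitory nuclei ranged from 71 to 566 per library.

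Levels are given in CPM for each class and library. Values in 4 libraries are given in the order PE-low-EV 1, PE-low-EV 2, PE-high-EV 1 and PE-high-EV 2, and means carry the SD over these 4 libraries. The mean level followed the length of the gene, with a Spearman correlation of 0.796 across the 39 genes, which span 6.476 to 1448 kb and share the same libraries. Levels were for this reason compared between classes for 1 gene, and not between genes.

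RefSeq promoter windows of 4 genes (300 bases, from 250 before to 50 after the start of the transcript, build GRCm38.p6) are shown because Grik3 and Grin2c stood apart in 1 of the 13 ranked classes each and Gabra4 and Gabrb1 are neighbours with different patterns. Capitals mark GC boxes, searched as GGGCGG on both strands. Gabra4 lies on the minus strand (chr5:71658259-71658558) and Gabrb1, which runs in the opposite direction, on the plus strand (chr5:71657671-71657970). Grik3 is on the plus strand (chr4:125490446-125490745) and Grin2c on the minus strand (chr11:115267194-115267493).
Gabra4: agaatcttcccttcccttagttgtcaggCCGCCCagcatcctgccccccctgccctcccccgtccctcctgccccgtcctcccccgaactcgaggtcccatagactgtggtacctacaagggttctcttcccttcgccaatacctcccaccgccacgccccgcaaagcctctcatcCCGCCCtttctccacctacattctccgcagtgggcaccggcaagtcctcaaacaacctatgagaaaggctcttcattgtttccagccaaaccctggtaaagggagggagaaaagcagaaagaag
Gabrb1: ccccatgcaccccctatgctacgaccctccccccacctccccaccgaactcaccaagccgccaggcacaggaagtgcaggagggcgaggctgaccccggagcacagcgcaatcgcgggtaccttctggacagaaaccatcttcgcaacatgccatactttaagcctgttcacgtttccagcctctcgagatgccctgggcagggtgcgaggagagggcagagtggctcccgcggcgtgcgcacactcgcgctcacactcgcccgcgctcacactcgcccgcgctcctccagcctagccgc
Grik3: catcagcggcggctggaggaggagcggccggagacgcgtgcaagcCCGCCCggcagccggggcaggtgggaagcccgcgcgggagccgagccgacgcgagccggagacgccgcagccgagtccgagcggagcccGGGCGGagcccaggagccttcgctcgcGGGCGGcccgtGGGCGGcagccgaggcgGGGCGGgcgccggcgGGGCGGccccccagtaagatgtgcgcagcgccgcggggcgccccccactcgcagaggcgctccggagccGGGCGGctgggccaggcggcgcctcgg
Grin2c: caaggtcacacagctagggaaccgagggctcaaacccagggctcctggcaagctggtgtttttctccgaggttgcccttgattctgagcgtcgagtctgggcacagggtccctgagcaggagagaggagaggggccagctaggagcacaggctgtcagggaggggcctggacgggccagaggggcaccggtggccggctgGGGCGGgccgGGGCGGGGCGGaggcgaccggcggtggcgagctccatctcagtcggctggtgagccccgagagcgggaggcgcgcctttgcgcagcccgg

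The Grik3 window held 7 GC boxes and 50 CpG, the Grin2c window 3 and 22, the Gabra4 window 2 and 12, and the Gabrb1 window none and 25. Windows were found for 24 of the 39 genes, 31 windows in all. A GC box was present in 51.6% of these windows against 35.7% of all 32851 windows of this length, and TATAAA in 12.9% against 13.6%. The median number of CpG per window was 13, against 7 over all windows. A match of letters is a description and not a bound site.

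**Figure D1:**
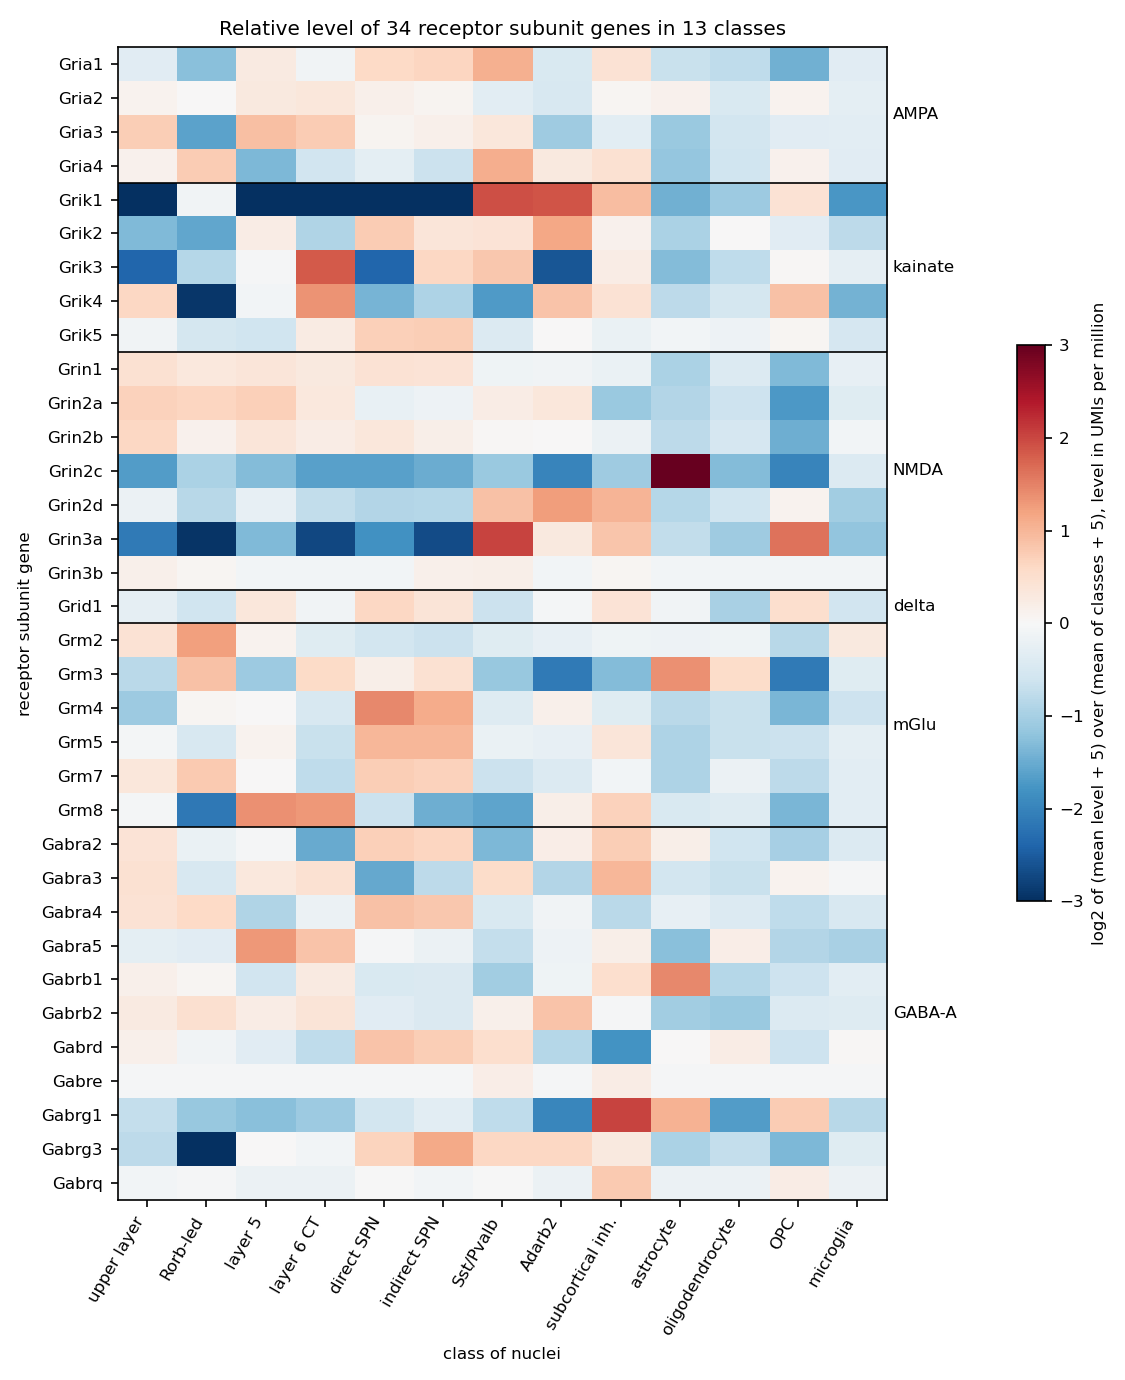
Level of 34 of the 39 receptor subunit genes (rows, grouped by family) in 13 classes of nuclei (columns), as log2 of the mean level over 4 libraries plus 5 CPM, relative to the gene's mean over the classes plus 5. Red cells mark classes above a gene's mean, such as Grin2c in astrocytes, and blue cells classes below it.

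The 39 genes peaked in different classes, as the map of relative levels shows. Its 13 classes are 9 of neurons and 4 of glia, and the Slc17a6 class, the mixed striatal class and the other Slc17a7 clusters are not among them. Highest and lowest class mean the highest and lowest of these, or of the 9 neuronal ones. The mean of the Slc17a6 class was above all 13 for 7 genes (Gabra4, Gabra5, Gabrb1, Gabrd, Grid1, Grin2d and Grm4). That of 1 or more of the other Slc17a7 clusters was above all 13 for 10 genes (Gabra3, Gabre, Gabrg3, Gria4, Grid1, Grik1, Grik3, Grin3b, Grm7 and Grm8). The highest mean was in direct pathway neurons for 6 genes, in Sst and Pvalb class interneurons for 5 and in subcortical inhibitory neurons for 5. Layer 5 neurons and the Rorb-led cluster were highest for 4 genes each. Glia held the highest mean for 4 genes, among them Gabrb1, Grin2c and Grm3 in astrocytes. For 12 of 39 genes all 4 libraries of the highest class lay above all 4 of the class ranked next, among them Gria1, Gria4, Gabrb1, Gabrb2, Gabrg1, Gabrg3, Grin2b, Grin2c, Grik2 and Grik3. For the remaining genes the highest and the next class overlapped, so their order was not resolved. The highest class exceeded the median class at least 5 times for 7 genes and less than 2 times for 12 genes. Shares of all genes with such gaps are not given here, so these counts describe the 39 genes only. Gabre and Grin3b stayed near 1 CPM or below in every class, and their class of highest level rests on single molecules.

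Among the AMPA subunits, Gria2, which makes the channel impermeable to calcium after RNA editing, was the most even. Its 4 libraries read 2062, 2049, 2022 and 1812 CPM in layer 6 neurons, the highest class, and 1125, 1049, 1299 and 1048 CPM in Adarb2 class interneurons, the lowest neuronal class. These ranges did not overlap, but the span between them was less than 2 times. Gria1 stood at 1963, 2234, 2131 and 1874 CPM in Sst and Pvalb class interneurons and at 366, 399, 394 and 468 CPM in the Rorb-led cluster. Gria4, a subunit with fast kinetics, was also highest in Sst and Pvalb class interneurons, with 1729, 1623, 1743 and 1513 CPM, and lowest in layer 5 neurons, with 272, 227, 323 and 383 CPM. Gria3 read 1425, 1421, 1656 and 1430 CPM in layer 5 neurons and 192, 295, 238 and 298 CPM in the Rorb-led cluster. For each of these 3 genes the libraries of the highest and the lowest neuronal class were far apart.

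The kainate subunits, which form pre- and postsynaptic channels and set network excitability, differed widely between classes. Among the 9 neuronal classes, Grik1 was highest in interneurons. The Sst and Pvalb class read 1109, 909, 899 and 1125 CPM and the Adarb2 class 1172, 1041, 953 and 760.3 CPM. Layer 5 neurons held 4.0, 7.11, 0 and 3.71 CPM of Grik1. Grik2 peaked in Adarb2 class interneurons (3287 ± 179 CPM, SD, n = 4) and was also high in direct pathway neurons (2460 ± 228 CPM). Grik3 was highest in layer 6 neurons at 395 ± 55.6 CPM, with 188 ± 9.29 CPM in Sst and Pvalb class interneurons. Grik4, a high-affinity subunit that needs another kainate subunit to form a channel, was highest in layer 6 neurons at 293 ± 53.9 CPM and lowest in the Rorb-led cluster at 10.6 ± 3.19 CPM. Grik5, the other high-affinity subunit, ran from 59.4 ± 10.1 CPM in layer 5 neurons to 159 ± 43.1 CPM in indirect pathway neurons.

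NMDA receptors need Grin1, the glycine-binding subunit, and it was close to even across neurons. Its libraries read 413, 485, 452 and 467 CPM in upper layer neurons and 274, 282, 272 and 311 CPM in subcortical inhibitory neurons, the highest and the lowest neuronal class. Grin2a, the subunit of mature synapses, read 1949, 1961, 2140 and 2225 CPM in layer 5 neurons and 562, 487, 674 and 592 CPM in subcortical inhibitory neurons. Grin2b, which slows the channel, was highest in upper layer neurons at 2044, 2044, 2224 and 2047 CPM. Subcortical inhibitory neurons, again the lowest, had 1162, 1195, 1246 and 1188 CPM of Grin2b. Grin2d was scarce, with 36.0 ± 15.6 CPM in Adarb2 class interneurons and 4.34 ± 1.51 CPM in direct pathway neurons. Grin3a, a subunit that lowers calcium entry, was concentrated in Sst and Pvalb class interneurons at 410.2, 496, 476 and 459 CPM and fell to 8.18, 13.5, 7.44 and 10.5 CPM in the Rorb-led cluster. Grid1, a delta receptor subunit and synaptic organiser that binds cerebellins, was highest among neurons in direct pathway neurons, at 795 ± 72.0 CPM.

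Among the GABA-A alpha subunits, Gabra2 was highest in subcortical inhibitory neurons at 514, 521, 436 and 486 CPM, with direct pathway neurons close behind at 473, 462, 525 and 443 CPM. These classes overlapped, whereas layer 6 neurons, at 92.0, 84.6, 109 and 107 CPM, lay well below both. Gabra5, known for tonic inhibition in cortex and hippocampus, read 76.0, 128, 135 and 81.7 CPM in layer 5 neurons and 33.4, 30.5, 13.6 and 11.3 CPM in Sst and Pvalb class interneurons. Gabra3 was highest in subcortical inhibitory neurons (139 ± 5.13 CPM) and lowest in direct pathway neurons (19.7 ± 7.28 CPM). Gabra4, a partner of the delta subunit in striatum, was highest of the 13 classes in direct and indirect pathway neurons, at 310.4 ± 50.9 and 299 ± 10.6 CPM.

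Beta and gamma subunits complete the synaptic GABA-A receptor. Gabrb2 stood at 651, 775, 714 and 637 CPM in Adarb2 class interneurons and at 289, 279, 279 and 281 CPM in indirect pathway neurons. Over the 9 neuronal classes Gabrb1 ranged from 283, 395, 408 and 448 CPM in Sst and Pvalb class interneurons to 1083, 1299, 987 and 1151 CPM in subcortical inhibitory neurons, and these libraries did not overlap. Gabrg3 was highest in indirect pathway neurons at 2253, 2079, 2350 and 2146 CPM. The Rorb-led cluster had only 28.6, 49.5, 44.6 and 83.7 CPM of Gabrg3, the lowest of the 9 neuronal classes. Gabrg1 marked subcortical inhibitory neurons at 125, 109.9, 95.3 and 89.7 CPM, while Adarb2 class interneurons had 0, 7.83, 0 and 0 CPM. Gabrd was highest in direct pathway neurons at 111, 87.4, 59.1 and 74.2 CPM and lowest in subcortical inhibitory neurons at 6.59, 7.64, 6.81 and 15.2 CPM. Gabrq, at 4.71 ± 2.28 CPM, was too sparse to rank beyond its peak in the latter class.

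Among the metabotropic receptors, Grm5, the Gq-coupled receptor of striatal projection neurons, read 3793 ± 201 CPM in direct and 3749 ± 186 CPM in indirect pathway neurons and 1191 ± 132 CPM in layer 6 neurons. Grm4, a presynaptic Gi-coupled receptor, was highest of the 13 classes in direct pathway neurons at 61.4 ± 10.3 CPM. Grm7, found in the active zone of terminals, was highest in the Rorb-led cluster at 3075 ± 178 CPM and lowest in layer 6 neurons at 1046 ± 119 CPM. Grm8 ran the other way, from 70.6 ± 15.9 CPM in the Rorb-led cluster to 859 ± 21.4 CPM in layer 5 neurons. Grm2 was scarce, with 16.1 ± 7.08 CPM in the Rorb-led cluster and 0.696 ± 0.813 CPM in indirect pathway neurons.

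**Figure D2:**
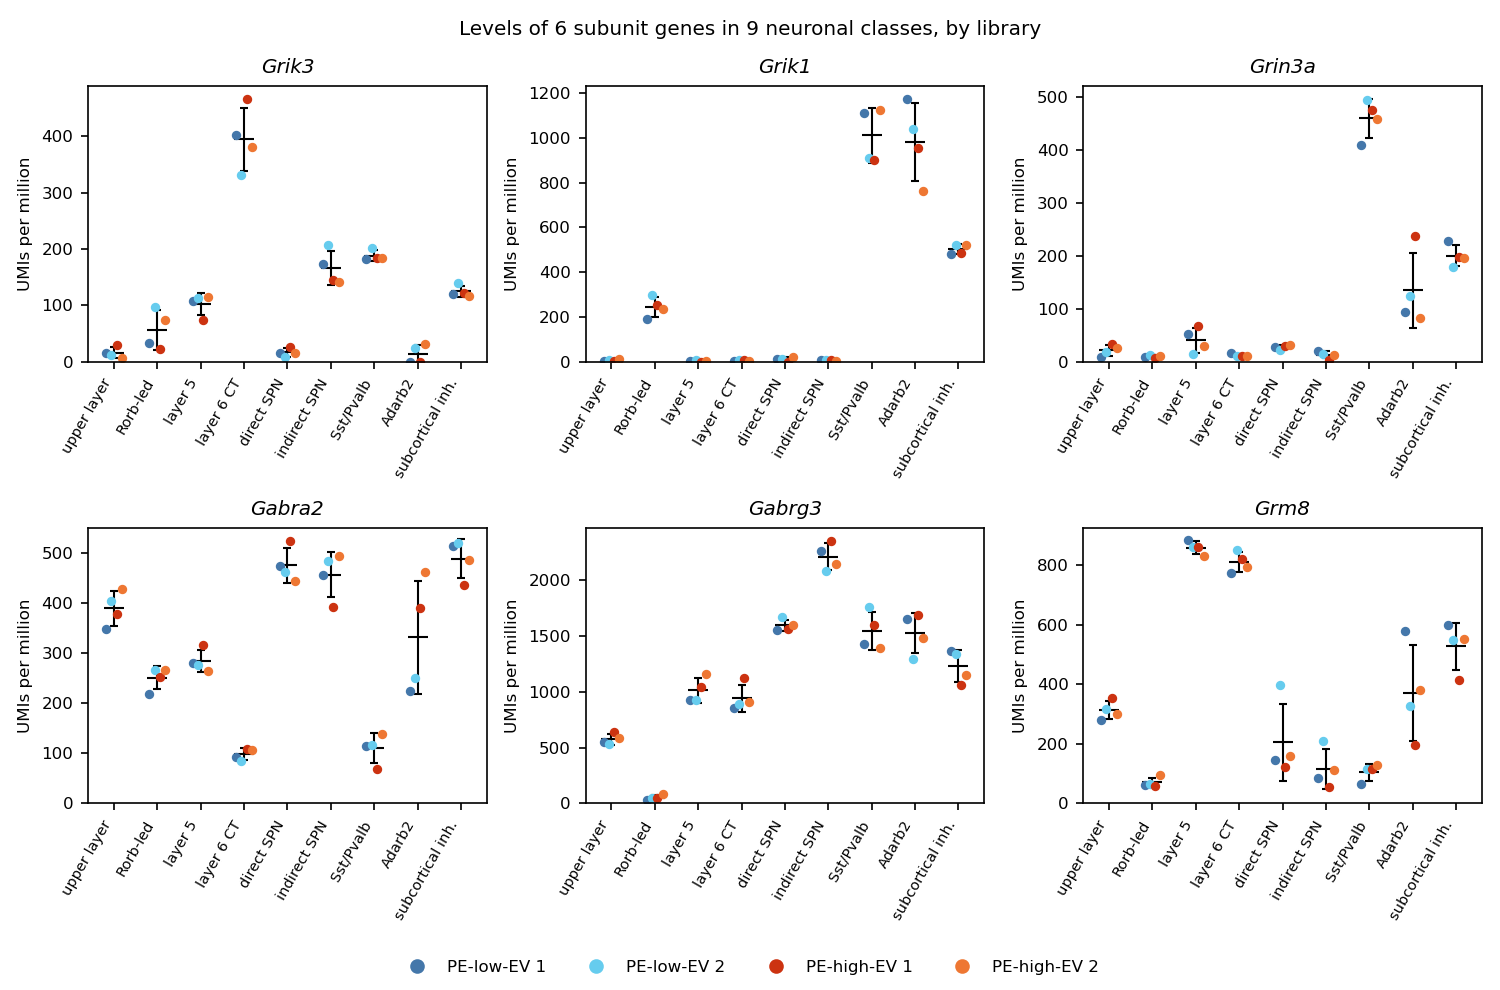
Levels in CPM (y axis, linear, from 0) of Grik3, Grik1, Grin3a, Gabra2, Gabrg3 and Grm8 in 9 neuronal classes (x axis). Each point is a library, coloured by EV group, and bars are the mean ± SD of the 4 libraries. The 4 libraries of a class sit close together beside the gaps between classes, as for Grik3 at 332 to 466 CPM in layer 6 neurons and 7.02 to 29.1 CPM in upper layer neurons.

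In all, 8 pairs of classes were tested in edgeR's quasi-likelihood model on UMIs summed per class and library, with the library as a covariate and p-values adjusted over all genes tested. The threshold was an adjusted p of 0.1. Classes are paired within libraries and the nuclei were assigned from the same data without the 39 genes, so the subunits had no direct part in the assignment.

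Slc17a7 excitatory neurons differed from interneurons in 26 of 34 subunits tested, 17 higher and 9 lower, where 32.1% of all genes tested were called (16.7% higher and 15.4% lower). Grin3a read 26.6, 26.5, 41.4 and 36.9 CPM in excitatory neurons and 346, 410.1, 419 and 358 CPM in interneurons (log2 difference -3.50 ± 0.11, SE, edgeR adjusted p = 2.1e-214). Grik1 read 80.5, 123, 86.9 and 81.1 CPM against 1122, 939, 911 and 1027 CPM (-3.35 ± 0.09). The 2 groups of libraries lay far apart for both genes, with interneurons higher in all 4. Grin2d, the subunit of slow NMDA currents, was also higher in interneurons, at 36.3, 28.9, 20.7 and 30.3 CPM against 6.95, 9.78, 8.28 and 4.72 CPM (-1.92 ± 0.32). Grik2 had 2169, 2112, 2631 and 2134 CPM in interneurons and 648, 719.8, 755 and 821 CPM in excitatory neurons (-1.53 ± 0.07). In the opposite direction, Grm8 read 484, 498, 633 and 526 CPM in excitatory neurons and 169, 164, 135 and 196 CPM in interneurons (1.71 ± 0.10). Grm3 followed with 379.8, 482, 420.4 and 385 CPM against 162, 168, 155 and 165 CPM (1.44 ± 0.10). Both receptors were higher in the excitatory pool without overlap, but not in each class of it. Grm8 read 63.4, 65.3, 59.5 and 94.1 CPM in the Rorb-led cluster, below the interneuron pool. Upper layer, layer 5 and layer 6 neurons were above that pool, but upper layer neurons overlapped the Adarb2 class. Grm3 read 156, 206, 209 and 197 CPM in layer 5 neurons, overlapping the Sst and Pvalb class at 173, 195, 177 and 196 CPM. Grik4 (1.04 ± 0.14) read 125, 137, 151 and 138 CPM against 79.8, 61.4, 82.9 and 63.3 CPM. Gabra5 (1.01 ± 0.22) read 51.5, 51.8, 50.9 and 52.5 CPM against 31.4, 37.9, 20.7 and 11 CPM. The edgeR adjusted p of these named genes was at most 4.3e-05. By family, the AMPA subunits gave 2 higher and 2 lower, the NMDA subunits into 3 and 2, and the GABA-A subunits into 6 and 2 with 4 not called.

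Striatal projection neurons differed from Slc17a7 excitatory neurons in 30 of 35 subunits, 16 higher and 14 lower, where 47.6% of all genes were called (23.3% higher and 24.3% lower). All 12 GABA-A subunits tested passed, 6 in each direction, and so did all 7 metabotropic and all 5 kainate genes. Grm4 read 64.2, 43.7, 60.8 and 48.4 CPM in striatal and 11.9, 11.8, 11.8 and 12.4 CPM in Slc17a7 neurons (2.17 ± 0.15). Grik2 read 2220, 2368, 2051 and 2003 CPM against 648, 719.8, 755 and 821 CPM (1.57 ± 0.08). Gabrg3 stood at 1918, 1862, 1928 and 1842 CPM against 654, 626, 845 and 719 CPM (1.43 ± 0.07). These 3 genes were higher in the striatal than in the Slc17a7 pool in every library by a wide margin. Not each class in the pools followed. For Grik2, layer 5 neurons read 1453, 1620, 1844 and 1935 CPM and overlapped indirect pathway neurons, at 1911, 1933, 1925 and 1743 CPM. For Gabrg3, a Slc17a7 cluster led by Tshz2, described at the end, was above the striatal pool. Gabrd, of extrasynaptic receptors, read 108, 76.3, 60.8 and 79.3 CPM against 36.5, 30.5, 34.9 and 32.4 CPM (1.34 ± 0.11). Slc17a7 neurons as a pool were higher for Grik1, at 80.5, 123, 86.9 and 81.1 CPM against 18.5, 13.3, 21.3 and 28.1 CPM (-2.23 ± 0.15). This did not hold for each class in the pool. Mean Grik1 was 244 CPM in the Rorb-led cluster, but 6.88 in upper layer, 3.71 in layer 5 and 5.06 in layer 6 neurons. Direct and indirect pathway neurons had means of 11.9 and 6.09 CPM. Grik4 was also higher in the Slc17a7 pool, with 125, 137, 151 and 138 CPM against 34.8, 62.5, 42.6 and 51.2 CPM (-1.47 ± 0.11). Gabra3 did too, with 85.7, 101, 103 and 82.3 CPM against 34.3, 34.3, 21.3 and 41.4 CPM (-1.39 ± 0.12). Mean Grik4, however, was 10.6 CPM in the Rorb-led cluster, below the 39.7 and 57.0 CPM of direct and indirect pathway neurons. Grm2 was near the limit of counting, at 2.17, 1.66, 0 and 0 CPM in striatal and 8.11, 9.78, 5.91 and 8.26 CPM in Slc17a7 neurons (-2.72 ± 0.46). None of the 8 named genes overlapped between the pools, and their edgeR adjusted p was at most 5.9e-06. Only 1 of 5 NMDA subunits passed, lower in striatal neurons.

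Direct and indirect pathway neurons, which differ in dopamine receptor and in projection, differed in 12 of 32 subunits, 8 higher and 4 lower in the direct pathway, where 6.53% of all genes were called (3.31% higher and 3.22% lower). Grik3 gave the largest difference, with 15.3, 8.13, 26.2 and 15.8 CPM in direct and 173, 206, 145 and 142 CPM in indirect pathway neurons (-3.61 ± 0.19, edgeR adjusted p = 5.4e-80). All 4 indirect pathway libraries lay far above the direct pathway ones. Gabrg3 was lower in the direct pathway too, at 1554, 1665, 1562 and 1597 CPM against 2253, 2079, 2350 and 2146 CPM (-0.46 ± 0.05). Gabra3 read 16.5, 19.3, 13.1 and 30 CPM against 37.4, 35.4, 31.4 and 43.4 CPM (-0.89 ± 0.25). Grm3 overlapped between the classes but was lower in the direct pathway within each library, at 485, 421, 469 and 499 CPM against 651, 436, 550.1 and 613 CPM (-0.27 ± 0.07). The calls of Gabra3 and Grm3 were lost with DESeq2 (adjusted p = 0.704 and 0.52) and without PE-low-EV library 1 (edgeR adjusted p = 0.2 and 0.422), and that of Grm3 without PE-high-EV library 2 too (edgeR adjusted p = 0.12). Grik2 was higher in the direct pathway, with 2569, 2728, 2238 and 2307 CPM against 1911, 1933, 1925 and 1743 CPM (0.39 ± 0.05). Grin3a was higher with few molecules, at 27.1, 22.4, 29.5 and 31.6 CPM against 19.9, 15.4, 3.93 and 12.9 CPM (0.85 ± 0.30, edgeR adjusted p = 0.082). That call was lost with DESeq2, without a filter on low genes, and when any 1 library was left out. Grm8 was higher within each library, at 146, 398, 121 and 158 CPM against 87.2, 209, 55.0 and 113 CPM (0.79 ± 0.12). PE-low-EV library 2 was far above the other libraries in both classes for Grm8. Gria4, Grid1 and Grin2b were also called, all higher in the direct pathway. The count fell to 6 with DESeq2, to 6 without PE-low-EV library 1 and to 7 without PE-high-EV library 2, and Grik3, Gabrg3, Grik2, Grm8 and Gria4 were called in each of these.

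Within the cortex, upper layer neurons differed from layer 6 corticothalamic neurons in 19 of 30 subunits, 9 higher and 10 lower, where 27% of all genes were called (14.1% higher and 12.9% lower). Grik3 again stood out, with 16.0, 12.7, 29.1 and 7.02 CPM in upper layers and 402, 332, 466 and 379.9 CPM in layer 6 (-4.69 ± 0.17, edgeR adjusted p = 4.5e-31). Grm3 was lower in upper layers at 224, 205, 299 and 211 CPM against 508, 658, 625 and 676 CPM (-1.42 ± 0.10). Grm8 was lower as well, at 282, 318, 354 and 299 CPM against 774, 851, 823 and 793 CPM (-1.38 ± 0.08). These 3 genes were higher in layer 6 in all 4 libraries without overlap. Gabra5 read 42.7, 33.4, 21.1 and 29.5 CPM in upper layers and 69.0, 73.0, 69.8 and 92.4 CPM in layer 6 (-1.18 ± 0.20). Gabra2 had the opposite pattern, with 348, 404, 378 and 428 CPM in upper layers and 92.0, 84.6, 109 and 107 CPM in layer 6 (2.03 ± 0.12). Grm7 was higher in upper layers too and read 2113, 2365, 2380 and 2187 CPM against 872, 1106, 1133 and 1075 CPM (1.13 ± 0.07). Gabrd read 39.5, 38.0, 58.1 and 60.4 CPM against 33.5, 23.2, 19.4 and 18.9 CPM (0.95 ± 0.25, edgeR adjusted p = 0.0022), a call lost with DESeq2 (adjusted p = 0.104). The AMPA subunits gave 1 higher and 2 lower and the kainate subunits 3 lower of 4.

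Sst and Pvalb class interneurons, the basket and Martinotti types of the medial ganglionic eminence, differed from Adarb2 class interneurons in 18 of 30 subunits, 9 in each direction, where 22.1% of all genes were called (11% higher and 11.1% lower). Grik3 read 182, 202, 184 and 184 CPM in the former and 0, 23.5, 0 and 30.8 CPM in the latter (3.44 ± 0.42). Grin3a read 410.2, 496, 476 and 459 CPM against 94.7, 125, 238 and 82.2 CPM (1.90 ± 0.23). Both were higher in the Sst and Pvalb class in every library. Gabrd was higher in this class as well, at 72.9, 79.9, 47.6 and 56.4 CPM against 11.8, 23.5, 21.6 and 30.8 CPM (1.55 ± 0.52, edgeR adjusted p = 0.03), a call lost with DESeq2 (adjusted p = 0.225). Grik4 was higher in the Adarb2 class, at 249, 196, 238 and 144 CPM against 36.5, 21.1, 34.0 and 33.9 CPM (-2.74 ± 0.31). Grm8 read 580.3, 329, 195 and 380.1 CPM in the Adarb2 class and 63.8, 115, 116 and 128 CPM in the other (-1.89 ± 0.24). Gabra2 read 225, 250.5, 389.7 and 462 CPM against 115, 117, 68.1 and 139 CPM (-1.46 ± 0.22). Gabrb1 overlapped between the classes, with 438, 783, 953 and 739.7 CPM against 283, 395, 408 and 448 CPM, and was higher in the Adarb2 class within each library (-0.90 ± 0.15). Of the AMPA subunits 3 of 4 were higher in the Sst and Pvalb class, and of the GABA-A subunits 5 of 10 were lower.

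**Figure D3:**
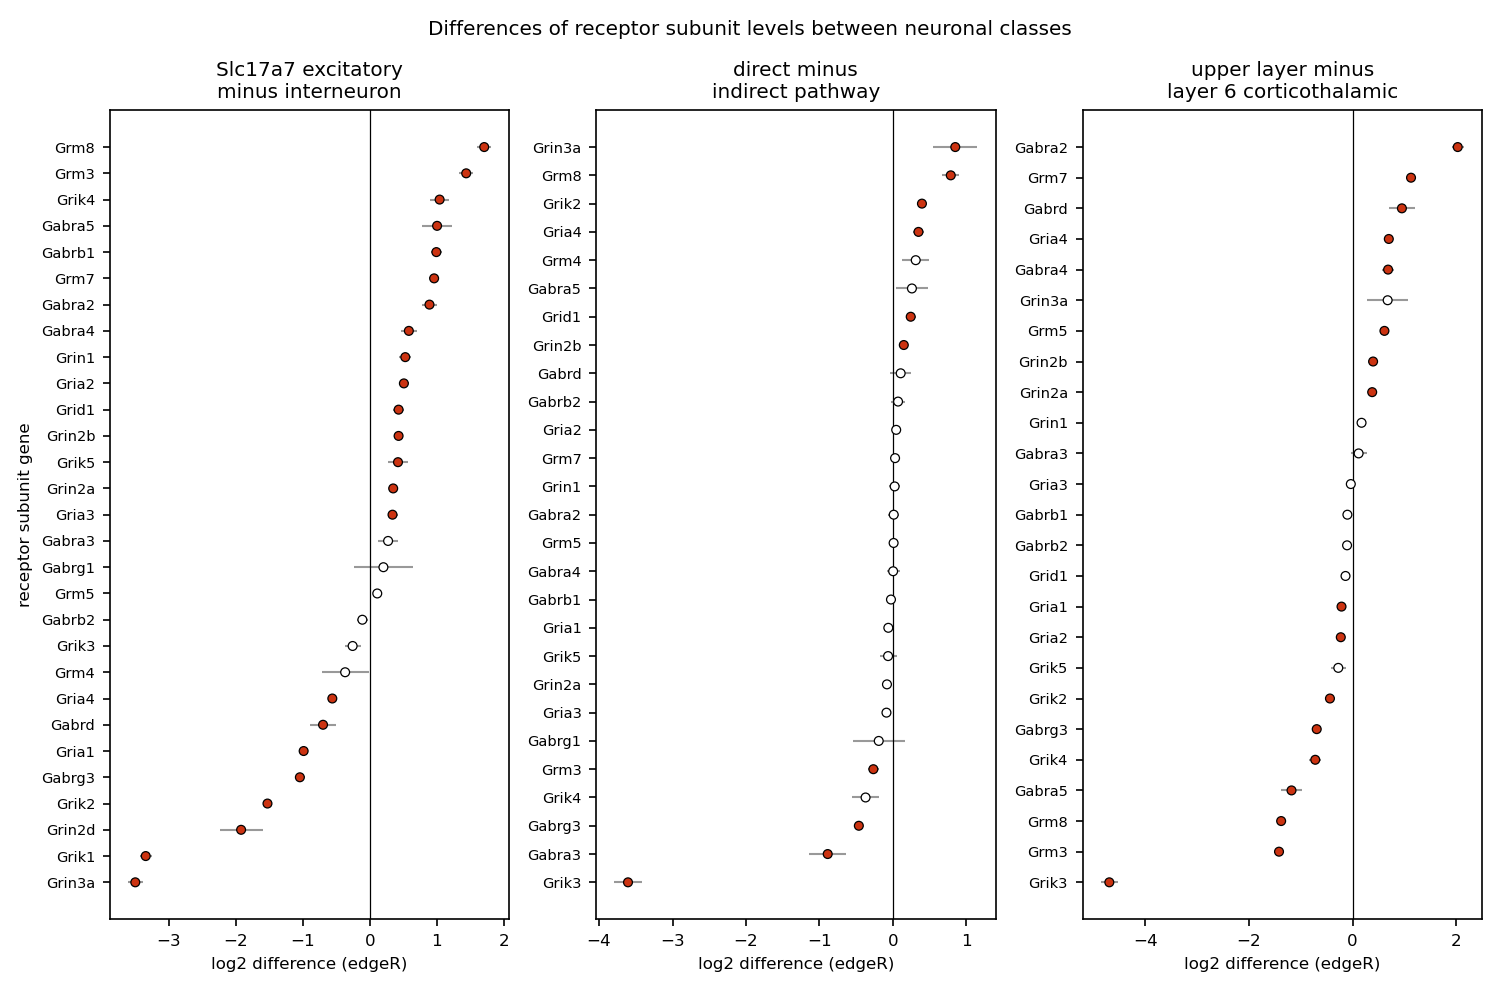
Log2 differences (x axis, edgeR, bars are SE) of receptor subunit genes (y axis) between Slc17a7 excitatory neurons and interneurons, direct and indirect pathway neurons, and upper layer and layer 6 neurons. Filled points passed an adjusted p of 0.1, and Grik3 lies at the far negative end of both the second and the third panel, at -3.61 and -4.69.

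The Slc17a6 subcortical class differed from Slc17a7 excitatory neurons in 16 of 36 subunits, 8 in each direction, where 9.63% of all genes were called (3.94% higher and 5.69% lower). It was compared over PE-low-EV 1, PE-low-EV 2 and PE-high-EV 2, and it holds few nuclei. PE-low-EV library 1 held 8 of them with 25052 UMIs and PE-high-EV library 2 held 17 with 39297 UMIs. The lower levels of the class in these libraries, 0 among them, rest on few molecules. Grin3a read 119.8, 338 and 458 CPM in the Slc17a6 class and 26.6, 26.5 and 36.9 CPM in the same libraries of Slc17a7 neurons (3.17 ± 0.35). Grin2d read 159.7, 63.0 and 50.9 CPM against 6.95, 9.78 and 4.72 CPM (2.87 ± 0.53). Grm4 read 119.8, 74.8 and 50.9 CPM against 11.9, 11.8 and 12.4 CPM (2.45 ± 0.48). All 3 were higher in the Slc17a6 class without overlap, although their levels varied widely, and Grin2d and Grm4 were not called without PE-low-EV library 2 (edgeR adjusted p = 0.251 and 0.72). Gabra4 was higher too, at 838, 362 and 611 CPM against 172, 185 and 172 CPM (1.27 ± 0.30, edgeR adjusted p = 0.00058). Grm3 was lower at 0, 66.9 and 102 CPM against 379.8, 482 and 385 CPM (-3.01 ± 0.42). Gria3 was lower at 359, 228 and 178 CPM against 928, 1019 and 1026 CPM (-2.34 ± 0.33). Grin2a was lower at 359, 519.6 and 839.8 CPM against 1752, 1819 and 1847 CPM (-2.0 ± 0.30). Grm8, at 0, 264 and 153 CPM against 484, 498 and 526 CPM (-1.75 ± 0.35), completed the genes lower in this class. The count fell to 8 without PE-low-EV library 2, which holds 70 of the 95 nuclei.

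Glial levels need the background beside them. The summed level of Syt1, Snap25 and Rbfox3, markers of neurons, was 1604 to 3255 CPM in astrocytes, 1170 to 1886 CPM in oligodendrocyte precursors, 1925 to 3036 CPM in oligodendrocytes and 2824 to 4497 CPM in microglia, against 3685 to 4336 CPM in direct pathway neurons. All 3 markers were detected in each of these classes. A related estimate, scaled to the profile of near-empty barcodes and capped at 100%, used neuronal markers in glia and glial markers in neurons. It used the UMIs of 18 neuronal markers, the 3 above among them, and of 21 glial markers. It put RNA of the near-empty kind at 62.9% to 98.9% of the UMIs of astrocytes, 45.5% to 59% of those of precursors, 68.8% to 98.3% of those of oligodendrocytes and 89.8% to 100% of those of microglia, against 10.04% to 22.3% in the neuronal classes. The part of such RNA in the glial subunit levels was not tested, and near-empty levels (mean of 4 libraries) are given beside the glial levels for this reason.

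Grin2c, an NMDA subunit known in cerebellar granule cells and astrocytes, read 135, 213, 134 and 146 CPM in astrocytes and 15.2 CPM on average in near-empty barcodes. In oligodendrocyte precursors it had 0 UMIs in all 4 libraries, so it was at least 16.7-fold higher in astrocytes, taking 3 UMIs over the precursors as the floor. The 9 neuronal classes held at most 7 UMIs of it in any library, so Grin2c stood apart in astrocytes from these 9 classes. Gabrb1 read 1821, 2792, 1817 and 2296 CPM in astrocytes, 662, 544, 323 and 537 CPM in precursors and 232.9 CPM in near-empty barcodes (astrocyte against precursor 2.13 ± 0.21). The Slc17a6 subcortical class, which is not among the 13 ranked classes, overlapped astrocytes with 2674, 1889 and 2341 CPM of Gabrb1. Grm3, the main metabotropic glutamate receptor of adult astrocytes, read 1463, 896, 853 and 1045 CPM in astrocytes and 136, 94.9, 0 and 131 CPM in precursors (3.38 ± 0.29), with 82.3 CPM in near-empty barcodes. Its astrocyte libraries overlapped those of the Rorb-led cluster, at 652, 916, 803 and 667 CPM, so the highest class was not resolved. Gabra2 read 328, 279, 329 and 377 CPM against 169.8, 94.9, 108 and 203 CPM (1.25 ± 0.28), with 113 CPM in near-empty barcodes, inside the precursor range.

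Astrocytes and precursors differed in 17 of 30 subunits, 7 higher and 10 lower in astrocytes, where 29.1% of all genes were called (15.7% higher and 13.4% lower). Of the kainate subunits 4 of 5 were higher in precursors, cells that are known to receive synapses from neurons. Grik1 read 391, 373, 376 and 287 CPM in precursors and 164, 40.7, 97.5 and 72.9 CPM in astrocytes (-2.04 ± 0.29), with 43.1 CPM in near-empty barcodes. Grik4 read 187, 240.3, 108 and 310.4 CPM against 46.8, 62.7, 85.3 and 60.7 CPM (-1.84 ± 0.31), with 20.3 CPM in near-empty barcodes. Grik3 read 84.9, 107, 108 and 131 CPM against 41.0, 47.0, 48.8 and 24.3 CPM (-1.35 ± 0.43, edgeR adjusted p = 0.015), with 40.5 CPM in near-empty barcodes, level with astrocytes. Precursors were higher for each in every library, but the Grik3 call was lost without PE-high-EV library 2 (edgeR adjusted p = 0.139). Grin3a read 289, 291, 484 and 334 CPM in precursors and 87.8, 68.9, 36.6 and 60.7 CPM in astrocytes (-2.16 ± 0.29), with 50.3 CPM in near-empty barcodes. The edgeR adjusted p of the other named genes was at most 0.00048. The count fell to 10 without PE-high-EV library 2.

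Precursors and oligodendrocytes differed in 17 of 29 subunits, 9 higher and 8 lower in precursors, where 33% of all genes were called (16.2% higher and 16.8% lower). Grin3a was higher in precursors, with 68.7, 18, 62.7 and 51.4 CPM in oligodendrocytes (2.84 ± 0.33, edgeR adjusted p = 7.5e-09). Grid1 read 645, 746, 645 and 871 CPM in precursors and 265, 179.6, 339 and 249 CPM in oligodendrocytes (1.56 ± 0.24), with 76.6 CPM in near-empty barcodes. Grik1, with 88.3, 156, 113 and 125 CPM in oligodendrocytes (1.47 ± 0.27), and Grik4, with 113, 65.9, 50.2 and 80.7 CPM (1.5 ± 0.30), were higher in precursors too. Grik4 overlapped by 1 library. Lower in precursors was Grm3, which read 539.6, 841, 364 and 668 CPM in oligodendrocytes (-2.69 ± 0.30). Grin2a read 526, 177, 484 and 322 CPM in precursors and 844, 593, 978 and 829 CPM in oligodendrocytes (-1.28 ± 0.24), with 310.2 CPM in near-empty barcodes, inside the precursor range. Grin2b read 543, 348, 592 and 489 CPM against 1011, 619.6, 1279 and 903 CPM (-0.96 ± 0.22), with 574 CPM in near-empty barcodes, again inside the precursor range. Oligodendrocytes held 1925 to 3036 CPM of neuronal marker RNA and precursors 1170 to 1886 CPM, and its part in the last 2 differences was not tested.

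The glial levels were also read with a mitochondrial limit of 15%, which kept 37526 nuclei. The 3170 astrocytes then held 156 to 199 CPM of Grin2c, 2162 to 2560 CPM of Gabrb1 and 736 to 1341 CPM of Grm3. The 1071 precursors held 294 to 430.1 CPM of Grin3a, 291 to 364 CPM of Grik1 and 195 to 309 CPM of Grik4. These ranges overlapped those of the stricter limit for every gene named. The neuronal markers summed to 1408 to 1884 CPM in the larger set of astrocytes and 1356 to 1848 CPM in the larger set of precursors.

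**Figure D4:**
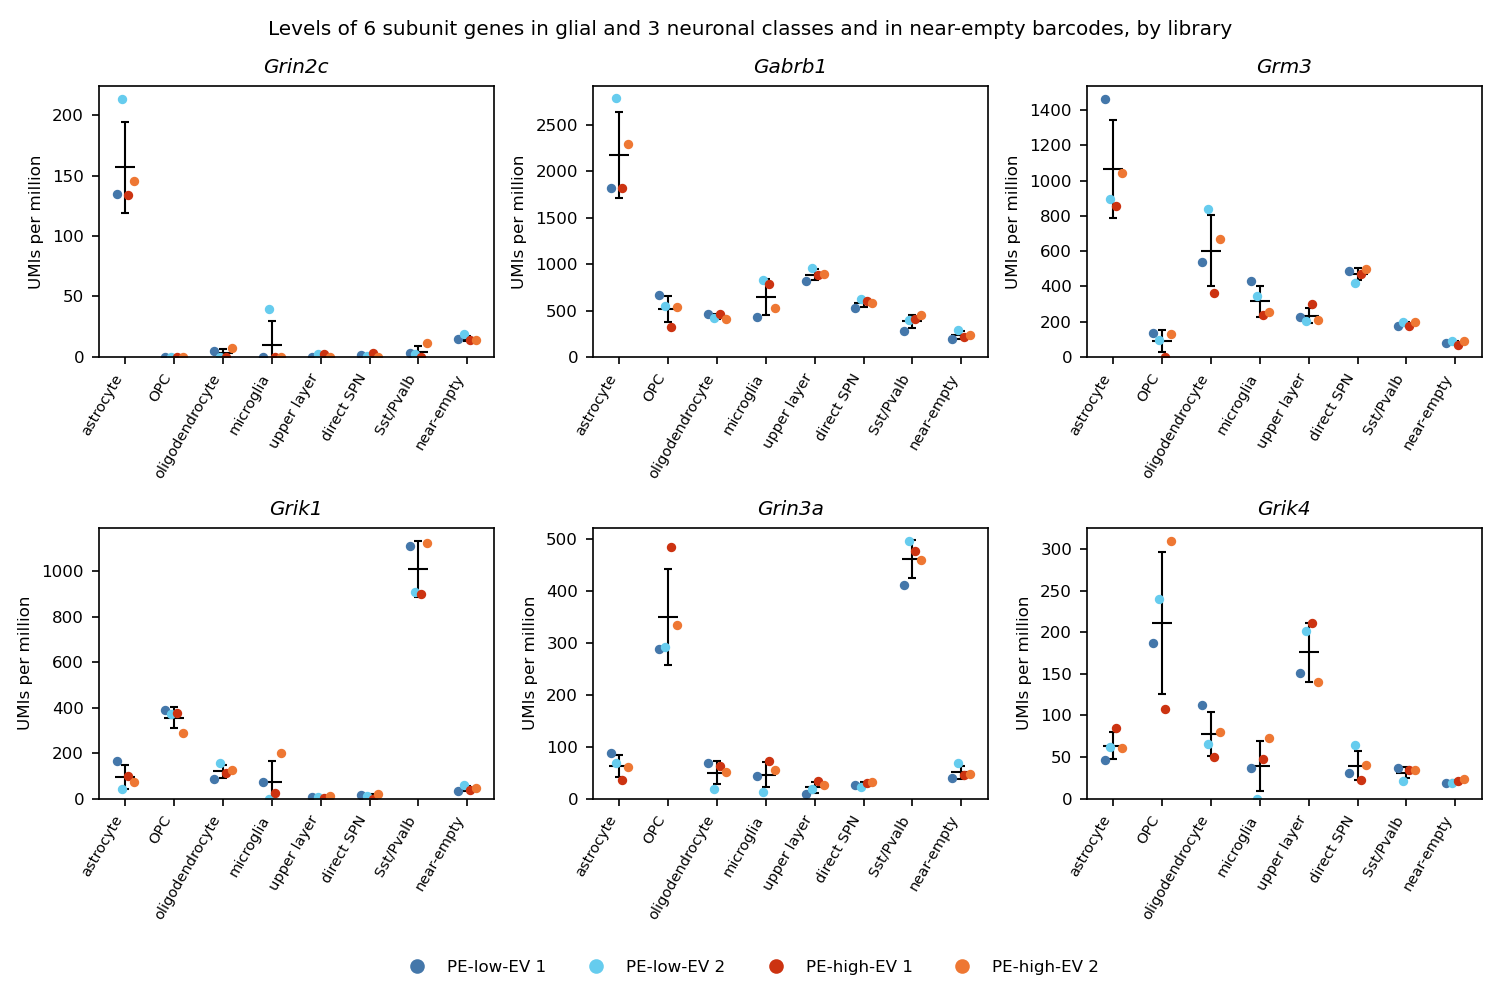
Levels in CPM (y axis, linear, from 0) of Grin2c, Gabrb1, Grm3, Grik1, Grin3a and Grik4 in 4 glial classes, 3 neuronal classes and near-empty barcodes (x axis), with a point per library and the mean ± SD of 4 libraries. Grin2c stands at 134 to 213 CPM in astrocytes and near 0 in the other classes, and near-empty barcodes lie well below the glial peaks of all 6 genes.

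Many GABA-A genes sit in clusters on the genome, and neighbours there need not share a pattern. On chromosome 5, Gabra4 (71569749-71658308) and Gabrb1 (71658113-72149037) run in opposite directions from starts that lie close together, as the promoter windows show, and their levels had a Spearman correlation of 0.176 over 13 classes. Of the 13 classes, Gabrb1 was highest in astrocytes and Gabra4 in striatal projection neurons. The gene table starts Gabrb1 at 71658113, where the genes overlap by 0.195 kb, and the promoter table takes a start further upstream, at 71657921. Gene spans are from the GENCODE annotation and promoter windows from the mouse RefSeq annotation of GRCm38.p6, and the classes share libraries. Whether strand was used in counting is not given in the sources used here. Reads from stretches that genes share, which also holds for Gabra5, therefore cannot be told apart.

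Genes that work with the receptors also differed between classes. Auxiliary subunits of glutamate receptors, such as TARPs and the Neto proteins, were called in 13 of 13 tested genes between Slc17a7 excitatory neurons and interneurons, 5 higher and 8 lower in the former, against 32.1% of all genes. Cnih3, a cornichon of AMPA receptors, was higher at a log2 difference of 1.49, and Neto2, a partner of kainate receptors, lower at -1.40. In striatal against Slc17a7 neurons 11 of 14 were called, 8 higher and 3 lower, against 47.6% of all genes, with Cacng4 at 3.78 and Shisa6 at -1.58. Shisa6 was also lower in upper layer than in layer 6 neurons (-2.01), where 2 of 12 were higher and 5 lower against 27% of all genes called, and Cacng3 was higher (1.81). Cacng4 was higher in precursors than in oligodendrocytes (4.58) and lower in astrocytes than in precursors (-3.01).

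Excitatory scaffolds, which anchor the receptors at the synapse, gave 9 higher and 5 lower of 17 tested in Slc17a7 excitatory neurons against interneurons, with Grip1 at -3.66 and Dlg1 at 2.03, where 32.1% of all genes were called. In striatal against Slc17a7 neurons 6 were higher and 6 lower of 17, with Homer2 at -2.51, where 47.6% of all genes were called. Of 5 inhibitory scaffolds, 4 were higher in striatal than in Slc17a7 neurons, including gephyrin (Gphn, 0.65), in the same comparison. Among other GABA receptor genes, Gabbr2 was lower in striatal neurons (-2.25) and Kctd8, an auxiliary protein of GABA-B receptors, higher in the Sst and Pvalb class than in the Adarb2 class (3.83). Direct and indirect pathway neurons differed in 2 of 15 excitatory scaffolds, Grip1 (-0.68) and Dlg2 (-0.13), and in 3 of 13 auxiliary subunits, where 6.53% of all genes were called. Scaffolds and other GABA receptor genes were not left out of the clustering either, and Grip1 and Kctd8 were among the leading genes of some clusters. The genes of transmitter synthesis and transport hold several markers of these classes, which the naming used, and are not read further.

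PE-high-EV and PE-low-EV libraries were compared within 16 classes. No subunit passed an adjusted p of 0.1 in edgeR in any class, over 466 tests of 19 to 35 subunits per class. Of all genes, 0.0113% passed in upper layer, 0.0824% in layer 5, 0.0883% in layer 6, 0.0364% in direct pathway neurons and 0.0159% in the Rorb-led cluster, with 0.0185% in the Sst and Pvalb class, 0.0155% in all interneurons and 0% in the other 9 classes. At an unadjusted p under 0.05 there were 36 of 466 subunit tests (7.73%), where the share over all genes ran from 2.65% to 6.87% by class. The 16 classes include the Slc17a7 excitatory, striatal projection and interneuron pools, which contain other tested classes. The 466 tests thus share nuclei and libraries and are not independent. DESeq2 called none of the subunits either. In Slc17a7 excitatory neurons, the class with the most nuclei, 24 of 35 subunits had a positive log2 difference. Their median was 0.07, against -0.0028 over all genes. In striatal projection neurons 10 of 34 subunits had a positive difference, with a median of -0.05. Shares of all genes with a positive difference, and the striatal median over all genes, are not given here. These counts are therefore not read as a shift of the subunits. With 2 libraries of pooled mice per group, p-values measure the spread between libraries, and the PE-high-EV libraries were the shallower ones.

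Grin3a and Gabrg3 were among the 3 subunits with the smallest p in Slc17a7 excitatory neurons. Grin3a read 26.6 and 26.5 CPM in PE-low-EV and 41.4 and 36.9 CPM in PE-high-EV libraries (log2 difference 0.57 ± 0.18, edgeR adjusted p = 0.698). Gabrg3 read 654 and 626 CPM against 845 and 719 CPM (0.32 ± 0.10, edgeR adjusted p = 0.756). The groups did not overlap for these genes, but neither passed the threshold. Grm8, which was chosen after its values were seen, read 137 and 381 CPM in PE-low-EV and 163 and 187 CPM in PE-high-EV libraries of striatal projection neurons (-0.59 ± 0.27, edgeR adjusted p = 0.999), so 1 PE-low-EV library stood apart from the other 3.

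Leaving out 1 library changed these counts. The shares of all genes called in such fits are not given here, so the counts are not read as a result about the subunits. Without PE-low-EV library 1, edgeR called 3 subunits in Slc17a7 excitatory, 3 in direct pathway, 4 in indirect pathway and 4 in striatal projection neurons. Without PE-low-EV library 2 it called 8 in Slc17a7 excitatory neurons, all higher in PE-high-EV, and 1 in upper layer neurons. Without PE-high-EV library 2 it called Grm8 in indirect pathway neurons and in astrocytes, in opposite directions. In each such fit 1 group is a single library that is assumed to vary like the other.

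The difference of the EV effect between classes was tested as an interaction for 7 pairs of classes. It was called for 3 of 35 subunits between striatal projection and Slc17a7 excitatory neurons, where 0.345% of all genes were called, and for none in the other 6 pairs, where 0 to 5 subunits per pair had an unadjusted p under 0.05. The share of all genes called in these was 0.054% for Slc17a7 excitatory neurons against interneurons, 0.081% for direct against indirect pathway, 0.0605% for upper layer against layer 6, 0.224% for astrocytes against precursors and 0% in the remaining 2 pairs. Gria1 was lower by 0.45 in its EV effect in striatal than in Slc17a7 neurons (-0.45 ± 0.10, edgeR adjusted p = 0.0278) and Grik2 by -0.46 ± 0.10 (edgeR adjusted p = 0.0166). In Slc17a7 neurons Grik2 read 648 and 719.8 CPM in PE-low-EV and 755 and 821 CPM in PE-high-EV libraries, and in striatal neurons 2220 and 2368 CPM against 2051 and 2003 CPM. The groups separated in both classes for Grik2, in opposite directions. Gria1 read 704 and 829.9 CPM against 924 and 864 CPM in Slc17a7 neurons and 1403 and 1846 CPM against 1426 and 1462 CPM in striatal neurons, where PE-low-EV library 2 was above the other 3. Neither gene passed for the EV effect within either class. For the alternative fits that follow, the share of all genes called is not given here. DESeq2 called none in any of the 7 pairs, and the count was 5 with the upper layer, Rorb-led, layer 5 and layer 6 clusters alone as Slc17a7 neurons. It was 7 without PE-low-EV library 1, 1 without PE-low-EV library 2, 0 without PE-high-EV library 1 and 1 without PE-high-EV library 2.

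**Figure D5:**
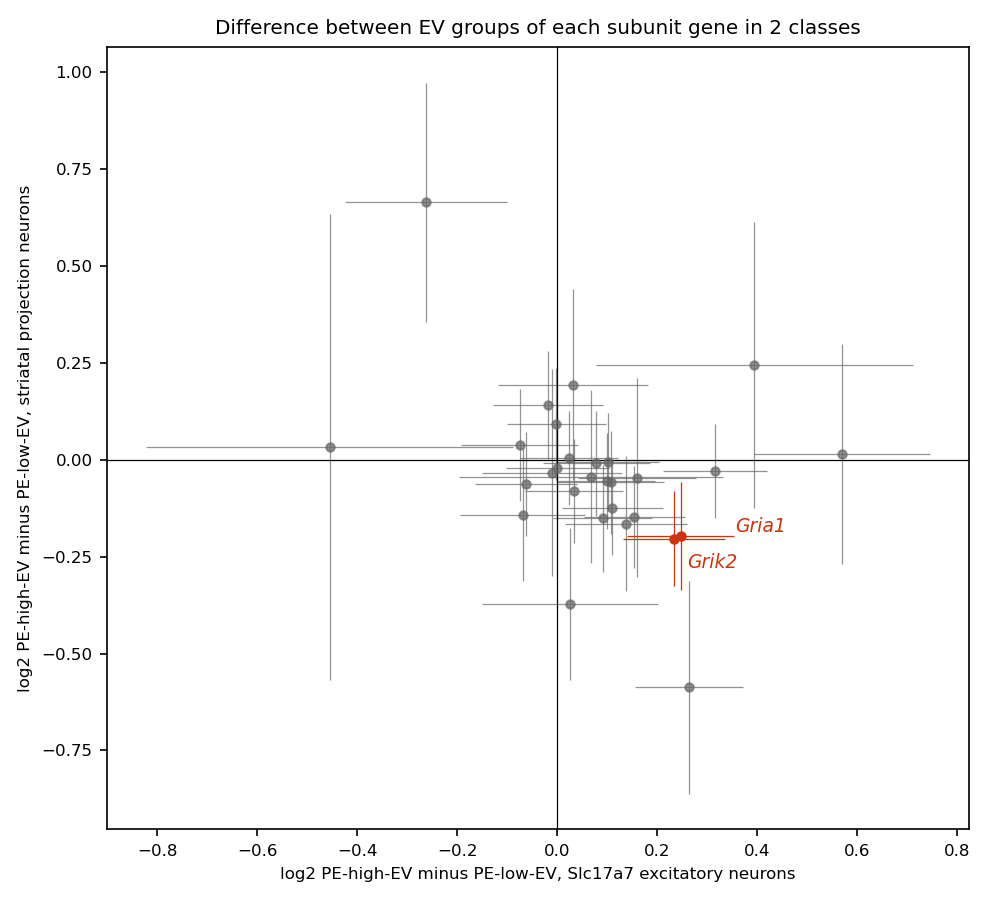
Log2 difference between PE-high-EV and PE-low-EV libraries in Slc17a7 excitatory neurons (x axis) and in striatal projection neurons (y axis), 1 point per subunit gene shown, with SE bars from edgeR. Gria1 and Grik2, in red, lie right of 0 on the x axis and below 0 on the y axis, at 0.25 and 0.23 against -0.20 and -0.20.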

How the data were processed

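The authors deposited raw UMI counts per gene and barcode, made with Cell Ranger 7.1.0 on mm10 (submitters' processing notes), neither filtered nor normalized. Whether introns and strand were used in counting is not given in the sources used here. The deposited gene and barcode lists, which hold other than counts, gave names and order. Barcodes that hold nuclei were found with a knee in their UMI totals and a test against near-empty barcodes, kept at 200 to 2500 genes and at most 3% mitochondrial UMIs, and clustered with Leiden (leidenalg 0.10.2, 2000 variable genes, 30 components, 20 neighbours, resolution 0.8) without the receptor genes. Doublets were not removed. Naming thresholds for clusters were set after the clusters were seen.

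Counts were summed per class and library and tested with edgeR 4.0.16 (TMM, filterByExpr, quasi-likelihood) in R 4.3.3. The p-values were adjusted by Benjamini-Hochberg over all genes. A class with under 15 nuclei in any library was left out of the PE-high-EV against PE-low-EV test. The pairs of classes had the library as covariate. The replicate numbers did not pair the samples (correlation of same-numbered deviations -0.003101 and 0.07267 in Slc17a7 excitatory and striatal projection neurons). The test was checked on simulated counts. Intervals and floors cover counting error only. Nothing says that libraries were processed apart beyond the pooling of mice, so p-values may measure technical spread in part.

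The genes and lists were chosen with earlier results of these data known. Named were, in each pair of classes, up to 4 genes higher in each class with the largest difference and the same direction in every library, the 3 with the smallest p for the EV comparison, a set of AMPA, NMDA and GABA-A subunits (shown in their highest and lowest neuronal class and wherever a pair names them) and those highest in glia. Alternatives were DESeq2 1.42.0, no filter on low genes, an adjusted p of 0.05, the replicate block, a mitochondrial limit of 15%, no upper limit on genes, clustering with the receptor genes, subtraction of near-empty barcode RNA and leaving out each library. Chosen after seeing the data were DESeq2 and leaving out libraries for the interaction, and the limit to 4 cortical clusters. Some genes enter the counts but are not reported here by name.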

Additional observations from a re-analysis of the deposited data

Results flagged for a closer look

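The EV effect differed between striatal projection and Slc17a7 excitatory neurons for 3 of 35 subunits, by an interaction term in edgeR, of which 2 are given. For Gria1 the log2 effect was -0.20 ± 0.14 (SE) in striatal and 0.25 ± 0.11 in Slc17a7 neurons, a difference of -0.45. For Grik2 it was -0.20 ± 0.12 and 0.23 ± 0.10, a difference of -0.46. The PE-high-EV libraries were the shallower ones, and the part of depth in the differences was not tested. Both differences kept their negative sign in every alternative run but passed the threshold in only some of them.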

How the results depend on the processing

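Of 334 counts of called subunits recomputed under an alternative, 312 stayed within 1.5 times the reported count, and of 716 recomputed differences between classes for named genes 695 kept their call, 21 lost it and 0 changed sign. For PE-high-EV against PE-low-EV, leaving out 1 library gave 0 to 1 subunits in upper layer neurons, 0 to 8 in Slc17a7 excitatory, 0 to 3 in direct pathway, 0 to 4 in indirect pathway and 0 to 4 in striatal projection neurons, and 0 to 1 in astrocytes. Without a filter on low genes 1 subunit was called in direct pathway neurons. With the replicate block 1 was called in striatal projection neurons and 0 in each of the other 15 of 16 classes, while same-numbered libraries showed no pairing. Direct against indirect pathway gave 6 with DESeq2 and 6 to 12 when a library was left out, the Slc17a6 class against Slc17a7 excitatory neurons 8 to 18, and astrocytes against precursors 10 to 19. Precursors against oligodendrocytes gave 26 with the mitochondrial limit of 15%. The interaction between striatal projection and Slc17a7 excitatory neurons gave 0 with DESeq2, 5 with the 4 cortical clusters alone and 0 to 7 when a library was left out. The causes were not tested, except that leaving out a library leaves fewer samples. Shares of all genes called in these alternative fits are not given here. The Slc17a6 comparison could not be made at the 15% limit because no cluster was named so.

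The class of highest level was the same for 30 of 39 genes at the 15% limit and for 34 of 39 after subtraction of near-empty barcode RNA. Genes with few UMIs in a class, such as Grm2, Grin3b, Gabre and Gabrq, and microglia, are limited by depth. So are the Slc17a6 class and the precursors of PE-high-EV library 1, which held 19 nuclei with 18596 UMIs.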

Other observations

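Small clusters inside the named classes had subunit profiles of their own, chosen here after their values were seen and given as values only. A cluster of 96 Slc17a7 nuclei led by Tshz2 read 1232, 1534, 1289 and 902 CPM of Grik1 and 2618, 2045, 3767 and 2747 CPM of Gabrg3, and 1078, 1172, 1884 and 1006 CPM of Grm8. Layer 5 neurons held 3.71 ± 2.91 CPM of Grik1, and the Sst and Pvalb class 1010 ± 123 CPM. A cluster of 115 Slc17a7 nuclei led by Nr4a2 read 2077, 2389, 2837 and 2379 CPM of Gria4.

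Among inhibitory nuclei, a cluster of 277 led by Ano1 read 4163, 4646, 4938 and 4906 CPM of Grm5, above the 3793 ± 201 CPM of direct pathway neurons in all 4 libraries. A cluster of 72 led by Sfta3-ps read 3316, 2999, 2875 and 3277 CPM of Gria4, above every library of the Sst and Pvalb class, and 0, 48.6, 56.4 and 90.4 CPM of Grm8. The Slc17a6 subcortical class read 2674, 1889 and 2341 CPM of Gabrb1 in its 3 libraries, in the range of astrocytes. None of these differences was tested.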
